A study of Homo sapiens with 6 samples.

Results

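The genes described here are 9 cell-surface serine proteases and Kunitz-type inhibitors of UMUC-14 cells: TMPRSS11D, TMPRSS11E, TMPRSS2, TMPRSS4, TMPRSS13, ST14, PRSS8, SPINT1 and SPINT2. They were taken by name from an expression table of 19361 rows, and all 9 had a row. The set was chosen because TMPRSS11E was among the largest rises after FGFR3 knock-down, so its rise is given as a description with no test, and it supports nothing about the others. UMUC-14 is an established human bladder cancer cell line. The data comprise 6 Affymetrix U133 Plus 2.0 arrays in 2 groups of 3. The control cells received only the transfection reagent LipofectaminRNAimax (called reagent alone below), and in the other cells FGFR3, which encodes a receptor for fibroblast growth factors, was targeted by siRNA. Each siFGFR3 array used a different siRNA (siFGFR3#35, siFGFR3#36 or siFGFR3#3), treatment lasted 40 h, and each labelling started from 100 ng of total RNA. No group received a siRNA without a target in these cells, so the presence of a siRNA and the loss of FGFR3 cannot be told apart, and the labels do not say whether the controls were separate cultures. The spread among the controls may therefore be technical only, while that among the siFGFR3 arrays also holds the differences between siRNAs.

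Type II transmembrane serine proteases are held in the plasma membrane by their amino-terminal end and cut proteins at the cell surface and in the space next to it. Matriptase (the product of ST14) and the lipid-anchored prostasin (PRSS8) work together in epithelia, where they are needed for barrier function and where prostasin increases the activity of the epithelial sodium channel. The membrane-bound inhibitors HAI-1 (SPINT1) and HAI-2 (SPINT2) bind matriptase and prostasin through Kunitz domains, and HAI-1 is the main partner of matriptase in many epithelial cells. TMPRSS11D and TMPRSS11E belong to the subfamily of the airway trypsin-like protease, whose genes lie in a cluster on chromosome 4.

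Values are log2 expression levels, so a difference of 1 is 2-fold. A gene rose or fell where limma, fitted over 13552 genes, gave an adjusted p under 0.05. Differences are siFGFR3 minus reagent alone unless said otherwise. Over all genes tested 45.1% passed, 20.6% as higher and 24.6% as lower, and in 60.8% the siFGFR3 arrays lay all above (26.9%) or all below (33.9%) the controls. Array medians lay between 5.41 and 5.52, and the median difference of all genes was −0.04. FGFR3 was at 8.70, 8.75 and 8.74 in reagent-alone cells and at 7.47 with siFGFR3#35, 7.14 with siFGFR3#36 and 8.45 with siFGFR3#3. Its level was below the controls with each siRNA, at 41.7%, 33.3% and 82.2% of the control mean. The difference of −1.04 passed (SE 0.30, adjusted p = 0.0271), but not without any 1 control or siFGFR3#35 (adjusted p = 0.0703 to 0.0817). The limit used for dim genes was a mean log2 level of 3.89. Of 12 urothelial markers 10 were above it, and the mean level over all 12 lay between 8.23 and 8.32 in control arrays and between 8.46 and 8.61 in siFGFR3 arrays; of the 10, 5 rose, among them the uroplakin genes UPK2 (by 1.14) and UPK3B (by 1.03), and EPCAM fell. Of 8 leukocyte markers 2 were below the limit, with PTPRC at 2.15 in controls, but LCP1 was at 9.15 and CORO1A at 7.997; CORO1A (−0.36) and CD3D (−0.47) fell. Of 8 fibroblast markers 4 were below it, with LUM at 1.90 in controls, while COL1A1 (0.64) and COL5A1 (0.47) rose and THY1 (−0.34) fell. Of 6 endothelial markers 4 were below it, with KDR at 2.41 in controls, and neither of the other two passed. The mean levels over each whole list ran from 5.25 to 5.34 in controls against 5.06 to 5.07 in siFGFR3 cells for leukocytes, from 3.95 to 4.005 against 3.94 to 4.11 for fibroblasts, and from 3.77 to 3.78 against 3.65 to 3.79 for endothelium. The part of these markers in the results below was not tested.

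Promoter sequences from RefSeq (GRCh38.p14) were at hand for 3 of the 9 genes, TMPRSS11D, TMPRSS11E and SPINT1. The 2 printed here are those of TMPRSS11E and TMPRSS11D, which lie in the same cluster on chromosome 4 and stood on opposite sides of their controls. Each is the 250 bases before the annotated start, written 5′ to 3′ on the strand of the gene, and capitals mark the letters TATAAA on either strand.
TMPRSS11E, chr4:68447213-68447462, plus strand: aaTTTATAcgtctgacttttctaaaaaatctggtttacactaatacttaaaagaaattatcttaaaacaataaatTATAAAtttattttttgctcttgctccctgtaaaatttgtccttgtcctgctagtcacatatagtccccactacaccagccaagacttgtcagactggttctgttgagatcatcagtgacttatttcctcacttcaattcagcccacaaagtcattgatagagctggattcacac
TMPRSS11D, chr4:67884003-67884252, minus strand: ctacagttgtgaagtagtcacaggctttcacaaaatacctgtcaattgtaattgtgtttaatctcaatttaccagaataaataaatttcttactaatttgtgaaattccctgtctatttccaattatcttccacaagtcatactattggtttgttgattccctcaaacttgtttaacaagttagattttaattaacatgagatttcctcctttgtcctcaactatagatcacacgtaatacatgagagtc
Both windows are poor in G and C, 34.4% for TMPRSS11E and 31.6% for TMPRSS11D, against a median of 58% over 35116 promoters, while the first annotated window of SPINT1 holds 80.4%. On both strands TATAAA occurred 2 times in the TMPRSS11E window, starting 248 and 175 bases before the start, and not in that of TMPRSS11D. Of all promoters of this length 10.7% hold it. That share covers every composition, and only 5.27% of promoters held as little G and C as TMPRSS11E or less. It is therefore no guide to how often TATAAA falls in such a window. Whether these letters act in either gene was not tested. The AP-1 letters TGACTCA (in 4.2% of all promoters), the ETS letters CCGGAAG (8.52%), the interferon-stimulated response element (3.02%), the Grainyhead letters AACCGGTT (0.117%) and the MYC E-box CACGTG (6.34%) were not in the windows of these 3 genes. The motifs searched did not overlap each other in these windows.

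TMPRSS11E, also called DESC1 after its changed expression in squamous cell carcinoma, was near the limit for dim genes in control cells and well above it with every siRNA. Its level was 4.002, 4.26 and 4.25 in the reagent-alone arrays, and 8.02 with siFGFR3#35, 6.35 with siFGFR3#36 and 6.73 with siFGFR3#3. The groups did not overlap, and the array with siFGFR3#35 stood highest. The group means were 4.17 ± 0.15 and 7.03 ± 0.87 (SD, n = 3 each), a difference of 2.86 or 7.28-fold, which is the value that chose the set. Among rises that passed and did not overlap it ranked 5th, after OLR1 (3.23) and before TNFSF10 (2.86); the 8th and 9th were SELENOP (2.70) and SCIN (2.51). Leaving out each array in turn, the difference lay between 2.37 and 3.20.

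TMPRSS11D, the human airway trypsin-like protease, was lower in every siFGFR3 array but did not pass. It was at 5.25, 5.18 and 5.36 in controls and at 4.99, 5.09 and 4.63 with siFGFR3#35, siFGFR3#36 and siFGFR3#3. The groups did not overlap, and siFGFR3#3 gave the lowest level. The difference was −0.36 (SE 0.13; 95% interval −0.66 to −0.06; adjusted p = 0.055 in limma). It passed with each array centred on its median (−0.42, adjusted p = 0.0354) and without siFGFR3#36 (−0.45, adjusted p = 0.0221). With the dimmest 50% dropped, TMPRSS11D was left out and not tested. The call therefore depends on these choices.

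**Figure D1:**
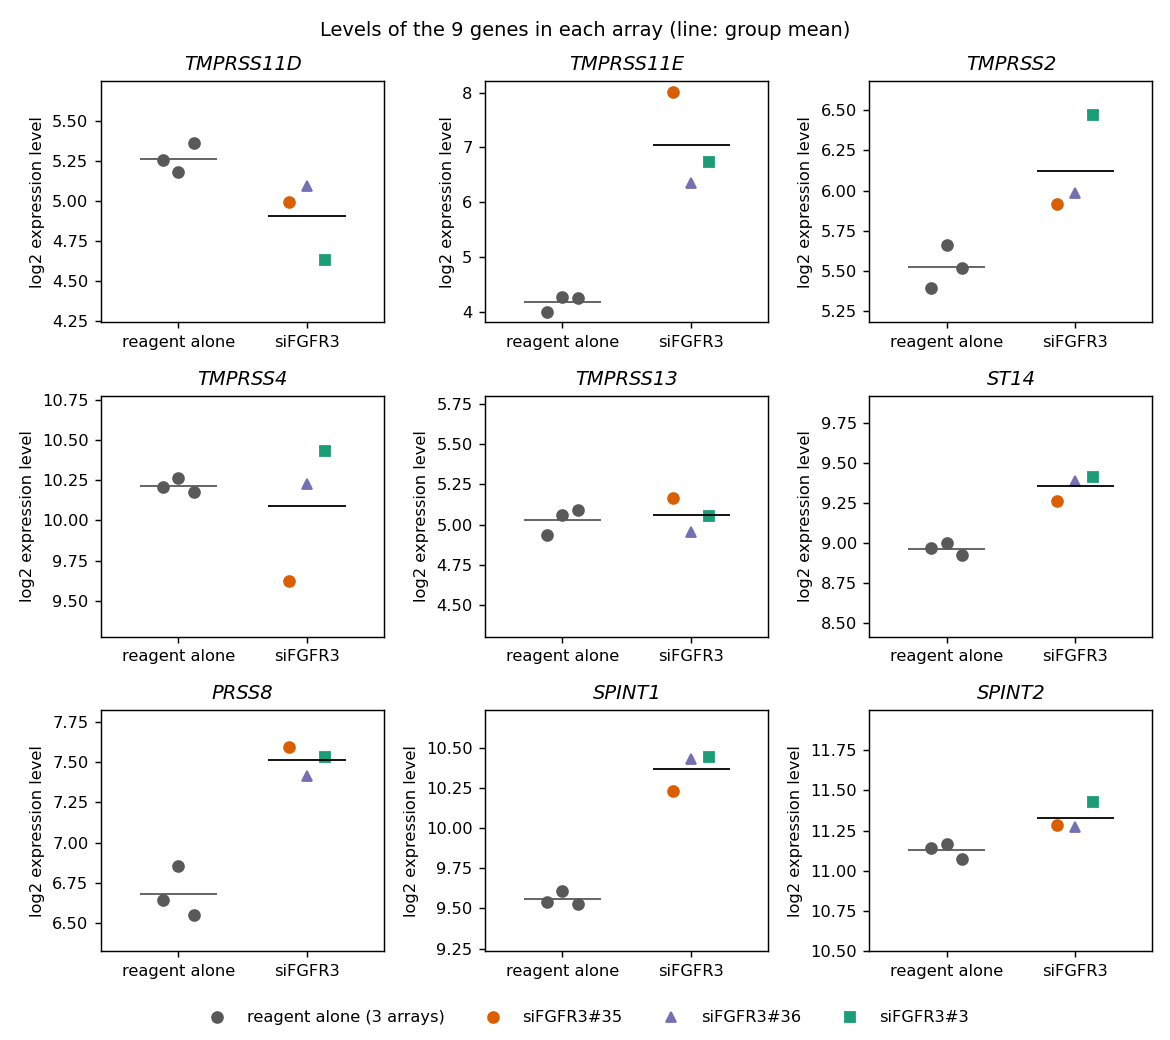
Log2 expression level (y axis, a separate range in each panel) of the 9 genes in the 3 reagent-alone arrays and the 3 siFGFR3 arrays, 1 point per array, with a line at each group mean; TMPRSS11E has a wider axis than the other panels. ST14, PRSS8, SPINT1, SPINT2, TMPRSS2 and TMPRSS11E lie above their controls in every siFGFR3 array, TMPRSS11D lies below, and TMPRSS4 and TMPRSS13 overlap.

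Counted over the set, 6 of 9 genes were higher, 0 lower and 3 did not pass, with a median difference of 0.39. The 6 include TMPRSS11E, whose call is no test because its rise chose the set. Without it 5 of 8 were higher, with a median of 0.30. For all genes the share higher was 20.6% and the median −0.04, and since the set was chosen on this contrast nothing is read from the comparison. The groups were separate in 7 of the 9 genes, 6 above and 1 below, beside 26.9% above and 33.9% below among all genes. Without TMPRSS11E they were separate in 6 of 8.

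TMPRSS2, TMPRSS4 and TMPRSS13 are proteases of the hepsin subfamily, and they did not move together. TMPRSS2, known for androgen-driven expression in prostate and for activating viral surface proteins, was at 5.395, 5.66 and 5.52 in controls and at 5.92, 5.98 and 6.47 with siFGFR3#35, siFGFR3#36 and siFGFR3#3. Every siFGFR3 array was above every control, most with siFGFR3#3. TMPRSS2 rose by 0.60 (SE 0.15, adjusted p = 0.0187 in limma), from 5.53 ± 0.13 to 6.12 ± 0.30 (SD, n = 3), or 1.51-fold. The call was lost without lipofectamine replicate 1 (adjusted p = 0.0709) or 3 (adjusted p = 0.0641).

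TMPRSS4, a protease found at raised levels in several carcinomas, went different ways with different siRNAs. It was at 10.21, 10.26 and 10.18 in controls, and at 9.62 with siFGFR3#35, 10.22 with siFGFR3#36 and 10.43 with siFGFR3#3. The siFGFR3 arrays lay below, within and above the range of the controls. The mean difference was −0.12 (SE 0.19; 95% interval −0.57 to 0.32; adjusted p = 0.602 in limma), and it became 0.11 without siFGFR3#35. The SD of the siFGFR3 arrays, 0.42, was larger than that of the controls, 0.042.

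TMPRSS13, a protease that in mice supports the epidermal barrier, stayed within a narrow range. It was at 4.94, 5.06 and 5.09 in controls and at 5.17, 4.95 and 5.05 with siFGFR3#35, siFGFR3#36 and siFGFR3#3, with overlapping groups. The difference was 0.03 (SE 0.09; adjusted p = 0.796 in limma). Its 95% interval, −0.17 to 0.23, holds changes of either sign. TMPRSS13 too was left out and not tested with the dimmest 50% dropped.

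ST14 and PRSS8, the matriptase and prostasin genes, were both higher with all siRNAs. ST14 was at 8.97, 8.998 and 8.92 in controls and at 9.26, 9.39 and 9.41 with siFGFR3#35, siFGFR3#36 and siFGFR3#3. It rose by 0.39 (SE 0.06, adjusted p = 0.0032 in limma), or 1.31-fold, from 8.96 ± 0.04 to 9.35 ± 0.08 (SD, n = 3). The lowest siFGFR3 array was above the highest control, and the call held in every fit that left out an array (adjusted p up to 0.0223).

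PRSS8 was at 6.64, 6.85 and 6.55 in controls and at 7.60, 7.41 and 7.54 with siFGFR3#35, siFGFR3#36 and siFGFR3#3. The groups were far apart compared with their spread, 6.68 ± 0.15 against 7.51 ± 0.09 (SD, n = 3). PRSS8 rose by 0.83 (SE 0.10, adjusted p = 0.0012 in limma), or 1.78-fold. Without any 1 array the adjusted p stayed at or below 0.0107.

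Of the inhibitors, both rose, SPINT1 by 0.81 and SPINT2 by 0.20. SPINT1 was at 9.54, 9.61 and 9.53 in controls and at 10.23, 10.43 and 10.44 with siFGFR3#35, siFGFR3#36 and siFGFR3#3. It rose by 0.81 (SE 0.07, adjusted p = 0.00059 in limma), or 1.75-fold, from 9.56 ± 0.05 to 10.37 ± 0.12 (SD, n = 3), and the call held without any 1 array (adjusted p up to 0.0075).

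SPINT2 was at 11.14, 11.17 and 11.07 in controls and at 11.28, 11.27 and 11.43 with siFGFR3#35, siFGFR3#36 and siFGFR3#3. The groups did not overlap, but the gap was small. SPINT2 rose by 0.20 (SE 0.06, adjusted p = 0.0273 in limma), or 1.15-fold. The call was lost without lipofectamine replicate 1, 2 or 3 (adjusted p = 0.081, 0.0643 and 0.104), without siFGFR3#3 (0.0533), with arrays centred on their median (0.0854) and without the variance trend (0.0516).

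**Figure D2:**
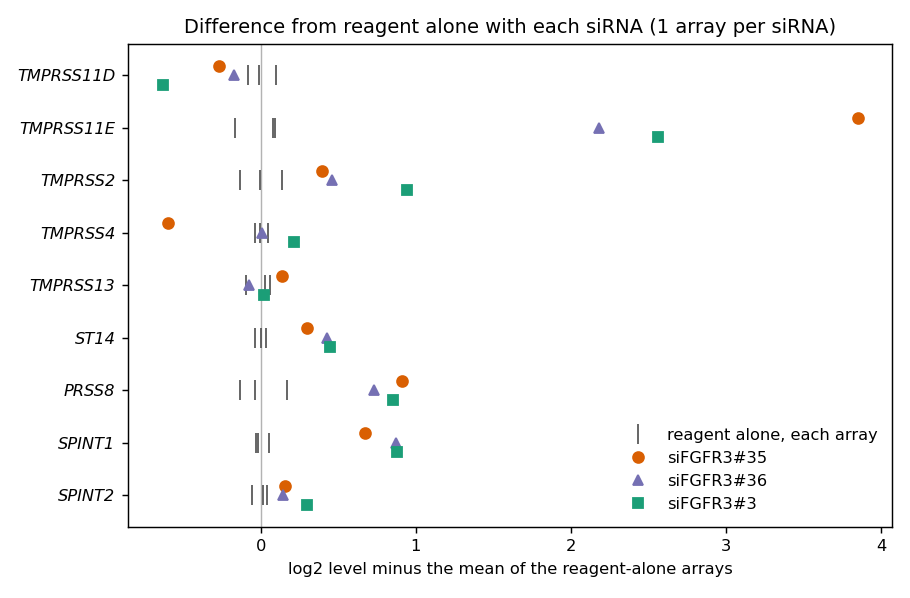
Log2 level minus the mean of the reagent-alone arrays (x axis) for each of the 9 genes, with a tick for each control array and a coloured point for each siRNA (1 array per siRNA; points are set apart vertically for legibility). The points of PRSS8, ST14 and SPINT1 lie close together, from 0.73 to 0.91, 0.30 to 0.45 and 0.67 to 0.88, while TMPRSS11E runs from 2.18 to 3.85 and TMPRSS4 from −0.60 to 0.21.

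The siRNAs were next set beside each other. Each stands for 1 array, so a difference between siRNAs has no replicate check and is given as a description, with no test, beside the largest difference between any pair of control arrays. In 8 of the 9 genes the siRNA arrays spanned a wider range than the controls, beside 80% of all genes, so a wider range is common to most genes. PRSS8 was the exception, with a range of 0.18 among siRNAs and 0.30 among controls.

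TMPRSS11E spanned 1.67 among siRNAs and 0.26 among controls. It was 1.67 higher with siFGFR3#35 than with siFGFR3#36, and 1.29 higher than with siFGFR3#3. TMPRSS4 spanned 0.81 among siRNAs and 0.083 among controls, and it was lowest with siFGFR3#35 (−0.60 against siFGFR3#36 and −0.81 against siFGFR3#3). Against the control mean, the TMPRSS4 level differed by −0.60 with siFGFR3#35, by 0.01 with siFGFR3#36 and by 0.21 with siFGFR3#3. FGFR3 itself was lowest with siFGFR3#36 and highest with siFGFR3#3. With 1 array per siRNA, a relation between the level of FGFR3 and those of TMPRSS11E and TMPRSS4 was not tested.

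TMPRSS2 spanned 0.55 among siRNAs and 0.27 among controls, and TMPRSS11D 0.46 and 0.18. In both genes siFGFR3#3 stood farthest from the controls, above them for TMPRSS2 and below them for TMPRSS11D. SPINT1 spanned 0.21 against 0.084, with siFGFR3#35 the lowest, TMPRSS13 spanned 0.21 against 0.15, ST14 0.15 against 0.073 and SPINT2 0.15 against 0.094. A limma fit with 4 levels (the controls and each siRNA) was also run over all genes. Its spread comes from the controls alone, and among the 9 genes it called 3 for siFGFR3#35 minus siFGFR3#36 (32.1% of all genes), 4 for siFGFR3#35 minus siFGFR3#3 (18.3%) and 3 for siFGFR3#36 minus siFGFR3#3 (26%). Nothing is read from these calls, since they compare single arrays.

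**Figure D3:**
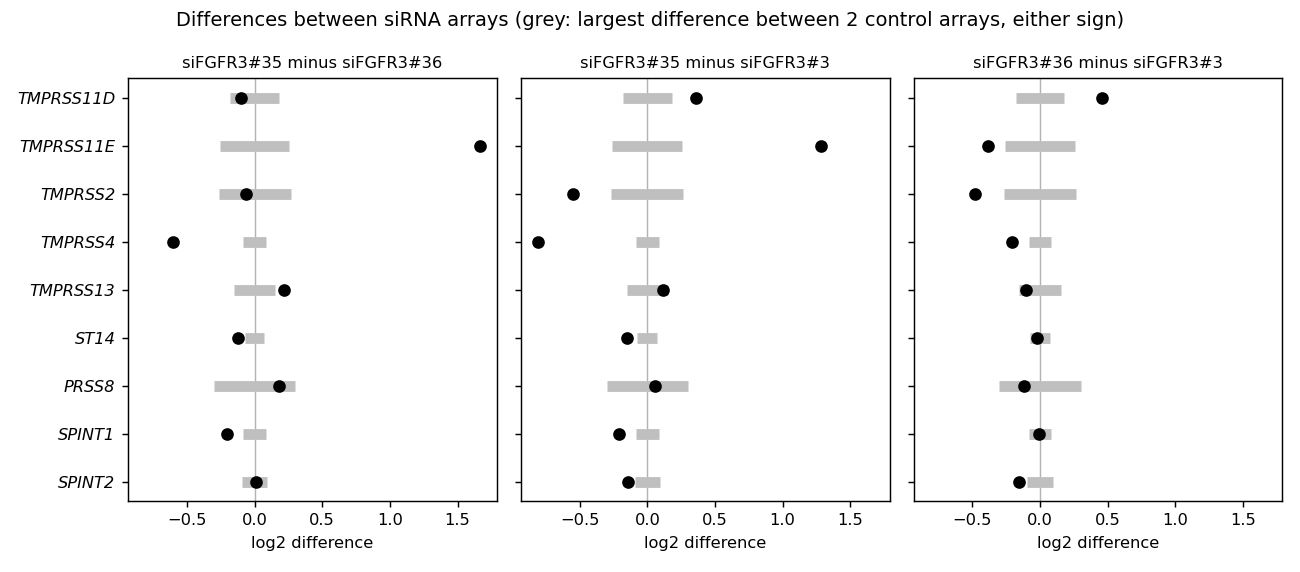
Log2 difference between siRNA arrays (x axis) for the 9 genes in the 3 pairs of siRNAs, 1 point per gene; grey bars reach, on either side of 0, to the largest difference between 2 control arrays. TMPRSS11E and TMPRSS4 lie on opposite sides of 0 in both panels that hold siFGFR3#35, at 1.67 and −0.60 and at 1.29 and −0.81, outside the grey bars.

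A ratio of proteases to inhibitors within each array is not changed by a shift common to all genes of that array, and it shows only unequal change. A shift that depends on level could still alter it, since some pairs differ in level (PRSS8 at 6.68 and SPINT2 at 11.13 in controls). Relative to its mean in controls, ST14 minus SPINT1 was 0.02, −0.02 and −0.01 in the control arrays and −0.37, −0.45 and −0.43 with siFGFR3#35, siFGFR3#36 and siFGFR3#3. Matriptase transcript was thus lower relative to that of HAI-1 in every siFGFR3 array. Against SPINT2 the sign was the other way: ST14 minus SPINT2 was 0.14, 0.28 and 0.15 with the same siRNAs, above all controls (−0.01 to 0.02).

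PRSS8 minus SPINT1 was 0.24, −0.14 and −0.03 with siFGFR3#35, siFGFR3#36 and siFGFR3#3, beside −0.10 to 0.12 in controls, so the groups overlapped. Relative to SPINT2, PRSS8 was higher by 0.76, 0.58 and 0.55, beyond the control range of −0.08 to 0.13. ST14 minus PRSS8 was −0.61, −0.31 and −0.41, below the controls (−0.14 to 0.09), so the transcript of prostasin rose by more than that of matriptase. An exact two-sided permutation test on 3 and 3 arrays cannot go below p = 0.1, so none was run on these ratios.

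**Figure D4:**
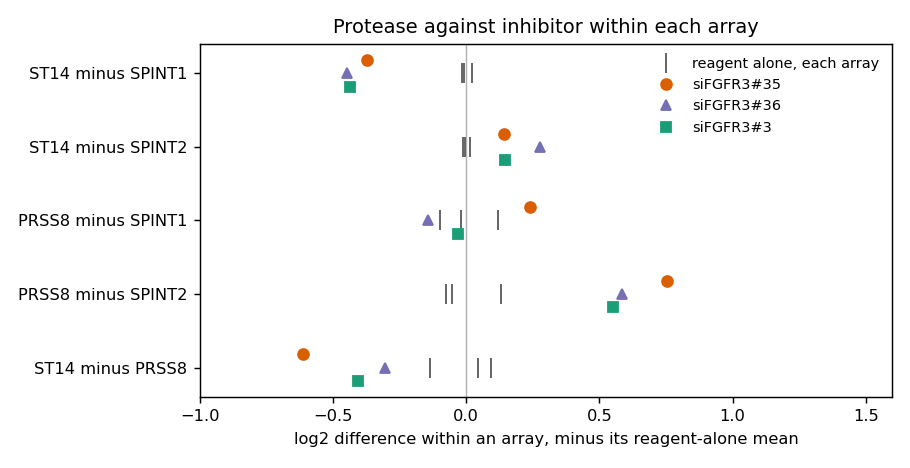
Difference between the log2 levels of 2 genes within an array, minus its mean in the reagent-alone arrays (x axis), for 5 pairs of a protease and an inhibitor or of both proteases. ST14 minus SPINT1 lies between −0.45 and −0.37 with all siRNAs, and PRSS8 minus SPINT1 overlaps its controls.

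The genes whose 6 array values were most like those of TMPRSS11E, among 455 others with a difference of at least 1 in size, were TMEM139, LIMCH1, LGALS3, RAB11B-AS1 and ZBTB20. Their Pearson correlations with it over the 6 arrays were 0.9995, 0.9987, 0.9981, 0.9979 and 0.9974. These are descriptions: the arrays fall into 2 groups, and 255 of the 455 genes had a correlation above 0.9. The 455 genes hold falls as well as rises, with a lowest correlation of −0.999 and a median of 0.93. A correlation above 0.9 is therefore common among the rises. What these 5 share with TMPRSS11E is the order of the siRNAs, with the largest rise with siFGFR3#35 and the smallest with siFGFR3#36. Picking genes by correlation over these same arrays favours that order, so nothing is read from it. TMEM139 differed from controls by 2.05, 1.15 and 1.33 with siFGFR3#35, siFGFR3#36 and siFGFR3#3, and ZBTB20, a zinc finger repressor, by 2.22, 1.31 and 1.64. LGALS3, the lectin galectin-3, was higher by 1.43, 0.79 and 0.96.

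The measured genes beside TMPRSS11E on chromosome 4 had smaller differences. Nearly any gene would, since TMPRSS11E was chosen for its large rise, so nothing is read from this. Most of these neighbours were below the limit for dim genes and not tested, so their differences are uncertain. On one side, YTHDC1, a nuclear reader of methylated adenosine in RNA, rose by 0.21 (adjusted p = 0.0304 in limma), and TMPRSS11B was at 2.06 in controls and 2.01 in siFGFR3 cells, below the limit for dim genes in both. LOC550113, next on that side, fell by 0.30 (adjusted p = 0.0173), and TMPRSS11D, beyond it, differed by −0.36 and did not pass. On the other side the glucuronosyltransferase genes UGT2B17, UGT2B15, UGT2A3 and UGT2B4 were all below that limit, with UGT2B15 at 2.55 in controls and 3.53 in siFGFR3 cells. These neighbours were chosen by position among the measured genes, after the values of TMPRSS11E were known.

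Genes of the same system were taken from 7 lists with 133 entries, 116 of which had a row. The counts of each list stand beside 20.6% higher and 24.6% lower among all genes. Of the substrates and partners of these proteases, 12 were tested: 3 rose, 3 fell and 6 did not pass, with a median of −0.01 beside −0.04 for all genes. The strongest rise was in SCNN1G, which encodes the gamma subunit of the epithelial sodium channel, the subunit that prostasin cuts. It rose by 1.90 (SE 0.14, adjusted p = 0.00037 in limma), from 4.50 ± 0.14 to 6.41 ± 0.26 (SD, n = 3), and by 1.63 or more with each siRNA. SCNN1B, the beta subunit, rose by 0.72 (SE 0.09, adjusted p = 0.0013), whereas SCNN1A, the alpha subunit, differed by −0.14 (SE 0.10, adjusted p = 0.265). EPCAM, an adhesion protein that matriptase cleaves, fell by 0.51 (SE 0.06, adjusted p = 0.0014), and PLAUR, the urokinase receptor, fell by 0.55 (SE 0.11, adjusted p = 0.008). Without any 1 array these calls of SCNN1G, SCNN1B, EPCAM and PLAUR held, and 5 members rose without siFGFR3#36. CDCP1, a membrane protein that serine proteases cleave, was at −0.34, and F3, tissue factor, at 0.24, both past the threshold.

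Other type II transmembrane serine proteases had 8 rows and 4 tested members, of which 1 rose and 3 fell, with a median of −0.29. TMPRSS3, a protease needed for hearing, rose by 1.03 (SE 0.27, adjusted p = 0.0211), while TMPRSS5 was lower by 0.51 (difference −0.51, adjusted p = 0.0101) and TMPRSS6, the liver protease matriptase-2 that restrains hepcidin, by 0.31 (difference −0.31, adjusted p = 0.0228). The third that fell was HPN (hepsin), at −0.27. In controls TMPRSS5 was at 4.83, TMPRSS6 at 4.89 and HPN at 4.51, below the array medians. With the dimmest 50% dropped, TMPRSS5 and TMPRSS6 were not tested and no gene of this list fell. Without any 1 control TMPRSS3 and TMPRSS6 no longer passed (adjusted p = 0.0511 to 0.0847). That left 0 higher and 1 lower, TMPRSS5, so HPN was not called either. TMPRSS6 was lost without siFGFR3#35 too (0.0517) and with a weight per group (0.0556). HPN was also not called with a weight per group or without siFGFR3#3.

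Among other PRSS genes and TPSG1, 5 of 8 tested rose, 1 fell and 2 did not pass, with a median of 0.36. PRSS27, a relative of prostasin, rose by 1.03 (SE 0.12, adjusted p = 0.0013), and PRSS22 by 0.64 (SE 0.12, adjusted p = 0.0053). PRSS16, which despite its symbol belongs to another peptidase family, rose by 0.80 (SE 0.22, adjusted p = 0.0223), and TPSG1, a membrane-anchored tryptase, fell by 0.42 (SE 0.09, adjusted p = 0.0097). PRSS16 did not pass without any 1 control (adjusted p = 0.0598 to 0.0754), and the members that rose numbered 3, 2 and 2 without lipofectamine replicate 1, 2 and 3 and 3 without siFGFR3#35 or siFGFR3#3; 2 fell without siFGFR3#36. Of the kallikreins, secreted serine proteases of skin and glands, 1 of 10 tested rose, 3 fell and 6 did not pass, with a median of −0.22. KLK6 rose by 0.79 (SE 0.25, adjusted p = 0.04), KLK5 fell by 0.40 (SE 0.08, adjusted p = 0.009) and KLK14 fell by 0.41 (SE 0.12, adjusted p = 0.0283). KLK6 was lost without any 1 control (adjusted p = 0.0593 to 0.129), and KLK14 without lipofectamine replicate 1 or 2, siFGFR3#35 or siFGFR3#3 (0.0694 to 0.0994) and with a weight per group (0.0648); 1 kallikrein fell without lipofectamine replicate 2, siFGFR3#35 or siFGFR3#3.

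**Figure D5:**
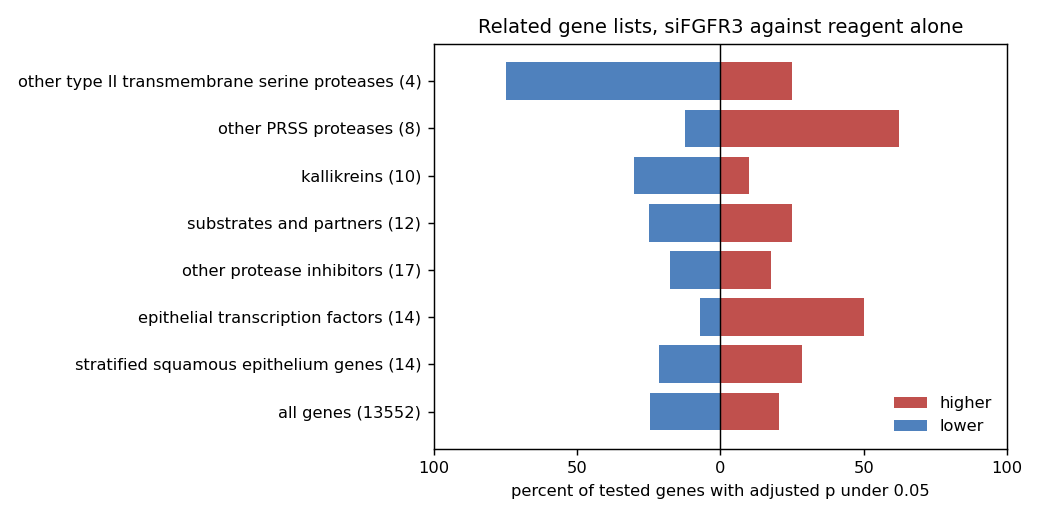
Percent of tested genes that were higher (to the right) or lower (to the left) at an adjusted p under 0.05 in siFGFR3 cells, for 7 lists of related genes and for all 13552 genes, with the number tested in brackets. Against 20.6% higher and 24.6% lower among all genes, the lists range from 10% to 62.5% higher and from 7.14% to 75% lower; each rests on 4 to 17 genes.

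Protease inhibitors outside the set went both ways, with 3 of 17 tested higher, 3 lower and 11 that did not pass, and a median of 0.03. These counts are 17.6% each way, near the 20.6% higher and 24.6% lower among all genes. CST6, the cysteine protease inhibitor cystatin M/E, rose by 0.95 (SE 0.16, adjusted p = 0.0043) and SERPINF1, a serpin without inhibitory activity, by 0.72 (SE 0.16, adjusted p = 0.0113). SERPINE2, protease nexin-1, which inhibits trypsin-like proteases, fell by 0.78 (SE 0.11, adjusted p = 0.0021), and SPINK4 fell by 0.53 (SE 0.10, adjusted p = 0.0065). All 4 calls held without any 1 array. SLPI, the secretory leukocyte peptidase inhibitor, was at 11.62 in controls and 11.65 in siFGFR3 cells (difference 0.03, SE 0.05, adjusted p = 0.685).

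Epithelial transcription factors, some of which are known to control these proteases, were higher in 7 of 14 cases, lower in 1 and did not pass in 6, with a median of 0.22. Their shares were 50% higher and 7.14% lower, beside 20.6% and 24.6% among all genes. GATA3, a factor of luminal urothelium, rose by 0.79 (SE 0.08, adjusted p = 0.0008), and ELF5 by 0.69 (SE 0.14, adjusted p = 0.0088). OVOL1 fell by 0.54 (SE 0.18, adjusted p = 0.0424), and that call was lost without any 1 control, siFGFR3#35 or siFGFR3#3 (0.0862 to 0.122). Without lipofectamine replicate 3, 4 members rose. Of genes of stratified squamous epithelium, where TMPRSS11 proteases are typically found, 4 of 14 tested rose, 3 fell and 7 did not pass, with a median of −0.10. Here 28.6% rose and 21.4% fell, near the shares among all genes. EMP1, a membrane protein of squamous cells, fell by 1.47 (SE 0.21, adjusted p = 0.0021), a call that held without any 1 array. CNFN, a cornified envelope protein, rose by 0.62 (adjusted p = 0.0323), S100A9 by 0.52 (adjusted p = 0.0309), and TGM1, the transglutaminase that builds the envelope, fell by 0.35 (adjusted p = 0.0381), but TGM1 lay near the limit for dim genes in controls (4.13) and below it in siFGFR3 cells (3.78), and none of these 3 passed without any 1 control (adjusted p = 0.0571 to 0.118). CNFN was also lost without siFGFR3#35 or siFGFR3#3 (0.0685 and 0.0921), S100A9 without siFGFR3#36 or siFGFR3#3 (0.0621 and 0.0778) and with centred arrays (0.0526), and TGM1 without siFGFR3#35 (0.0763) and with a weight per group (0.0621). Without any 1 control 0 members rose and 1 fell; 0 rose without siFGFR3#3 and 2 without siFGFR3#35.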

How the data were processed

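The authors deposited log2 expression values, and the submitters' processing notes name RMA and affy; versions, probe grouping and genome build are not given in the sources used here. RMA equalises the distributions of the arrays, so a change of most genes in 1 direction would be reduced. Of 19361 rows, named by Entrez gene ID, 18669 had 1 symbol, all updated through RefSeq (GRCh38.p14). The 30% of rows with the lowest mean level (5809 rows) were left out, which kept 13552, all 9 genes among them. The fits used limma 3.58.1 under R 4.3.3 (lmFit, eBayes with a variance trend; Benjamini-Hochberg over all rows kept; two-sided); SEs are limma's moderated ones, smaller than a gene's own spread where it varies more between siRNAs. Differences between siRNAs, which are single arrays, are described without a test, although limma with 4 levels had been planned for them. The median SD was 0.0536 among controls and 0.129 among siFGFR3 arrays. The scripts were tested on simulated arrays. The set, its lists and the tests were chosen with earlier results of these data known. Named genes are all 9, FGFR3, the 2 largest rises and 2 largest falls of each list among passing genes whose groups did not overlap, and the 5 genes most like TMPRSS11E; CDCP1, F3, SCNN1A, HPN, PRSS22, SLPI, the markers of other cell types and the neighbours of TMPRSS11E were added after their values were seen. The number of arrays limits the precision. Alternatives were other filters, centring, no trend, a weight per group and leaving out each array.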

Additional observations from a re-analysis of the deposited data

How the results depend on the processing

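Against reagent alone, the direction and call of ST14, PRSS8 and SPINT1 were the same under every alternative. The difference of TMPRSS11E, a description since it chose the set, was 2.80 with centred arrays and 2.37 to 3.20 without any 1 array. Filters, the trend and a weight per group cannot alter it. No paired analysis was possible because the siFGFR3 arrays carry siRNA names and no replicate numbers shared with the controls. With each array centred on its median, TMPRSS11D passed at −0.42, TMPRSS13 became −0.037, SPINT2 no longer passed at 0.13, S100A9 no longer passed, 1 of the 9 genes was lower, 2 squamous genes were higher and 5 kallikreins were lower, and the share of higher among all called genes was 35% in place of 45.6%; between siRNAs SPINT2 became −0.063 (siFGFR3#35 minus siFGFR3#36) and, for siFGFR3#36 minus siFGFR3#3, ST14 0.029 and SPINT1 0.042. Without the variance trend SPINT2 did not pass at 0.20, 5 kallikreins were lower, and the fit with 4 levels, from which nothing is read, called 2 genes of the set for siFGFR3#35 minus siFGFR3#3 and 1 for siFGFR3#36 minus siFGFR3#3. Without a filter on dim genes 3 other PRSS genes and 7 squamous genes were lower. With the dimmest 50% dropped, which tests fewer genes, 2 other PRSS genes, 0 kallikreins and 1 substrate or partner were higher, and 0 other type II proteases, 0 other PRSS genes, 0 kallikreins and 1 squamous gene were lower. Left out there were TMPRSS11D, TMPRSS13, TMPRSS5, TMPRSS6, TPSG1, KLK5, KLK14, SPINK4 and TGM1, and also SCNN1G, SCNN1B, PRSS27, KLK6 and ELF5, which rose. The median difference of all genes was −0.077 with no filter, −0.04 with the filter used and 0.0018 with the dimmest 50% dropped. With a weight per group 3 other PRSS genes and 5 substrates and partners were higher, and 1 other type II protease, 1 kallikrein and 1 squamous gene were lower; TMPRSS6, KLK14 and TGM1 did not pass. Except for fewer genes tested, the cause of these shifts was not tested.

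Leaving out each array in turn, FGFR3 lay between −1.42 and −0.77, TMPRSS2 between 0.43 and 0.70, SPINT2 between 0.15 and 0.23, TMPRSS11D between −0.45 and −0.22, TMPRSS4 between −0.29 and 0.11 (0.11 without siFGFR3#35) and TMPRSS13 between −0.026 and 0.081 (−0.017 without lipofectamine replicate 1, −0.026 without siFGFR3#35). FGFR3 did not pass without any 1 control or siFGFR3#35 (adjusted p = 0.0703 to 0.0817). Of the set, 4 to 6 genes were higher and 0 to 1 lower, and the fit with 4 levels, with 1 control left out, called 2 to 3, 3 to 5 and 2 to 4 for the 3 pairs of siRNAs. Over all genes, 1672 to 3592 were higher and 1964 to 3680 lower, with the fewest whenever a control was left out. The counts higher and lower ran from 0 to 1 and 1 to 3 for other type II proteases, 2 to 4 and 1 to 2 for other PRSS genes, 0 to 1 and 1 to 4 for kallikreins, 2 to 5 and 3 to 3 for substrates and partners, 4 to 9 and 0 to 1 for transcription factors, and 0 to 3 and 1 to 4 for squamous genes. Of the 24 genes named from the lists, 15 passed in every such fit and 9 did not. Signal over background was not available from these values, so levels near 3.89 have uncertain differences.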
